A study of Mus musculus with 24 samples.

Results

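The genes described here are cytosolic ribosomal proteins and other mRNAs of the TOP class, measured in mouse embryonic fibroblasts that carried either 2 or 1 intact alleles of Eif4e. Members were taken by platform symbol: Rpl or Rps followed by a number (with an optional a, l, x or y), the stalk proteins Rplp0, Rplp1 and Rplp2, Rpsa, and 9 other genes whose mRNAs are known to start with a TOP, without symbols marked as pseudogenes by -ps and without the Rps6k kinases. The rule gave 33 genes on 34 of the 25668 probe sets, with no filter on intensity, and used no measured value. They were 9 proteins of the large subunit, 8 of the small subunit, the 3 stalk proteins, 6 paralogs whose symbols end in l, 4 elongation factors (Eef1a1, Eef1b2, Eef1d, Eef2) and 3 further genes (Npm1, Nap1l1, Vim). Among these paralogs Rps4l is annotated in RefSeq as a transcribed pseudogene, although its symbol lacks -ps. Rps9 had 2 probe sets (10549588 and 10569069). Eef1g, Tpt1 and Rpsa had no probe set with that symbol alone, 6 probe sets that join a rule symbol with others were left out, and the remaining ribosomal proteins are not analysed here.

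Fibroblasts had been isolated at E13.5 from 3 wild type (WT) and 3 Eif4e+/- embryos, called WT 1 to 3 and Het 1 to 3. Each embryo gave an early passage untransformed primary culture and a matched culture transformed with Ras and Myc. DMEM with 10% FBS was the medium for all, and cells were collected while they grew exponentially. From each of the 12 cultures total RNA and RNA of heavy polysomes were hybridised to Affymetrix Mouse Gene 1.0 ST arrays, which made 24 arrays in 8 groups of 3. The labels give 1 transformed culture for each embryo and do not say whether it is clonal; the Eif4e+/- cells keep 1 intact allele. The series sets out to ask what the dose of eIF4E does in cancer and protein synthesis.

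A TOP mRNA begins at its cap with a C followed by an uninterrupted run of pyrimidines, the terminal oligopyrimidine tract. This class holds the mRNAs of nearly all cytosolic ribosomal proteins and of several translation factors, and the mTOR pathway and the RNA-binding protein Larp1 move it as a group between polysomes and untranslated particles. eIF4E is the cap-binding subunit of the initiation complex eIF4F, whose availability is set by the 4E-binding proteins downstream of mTOR. Ribosomal proteins are also among the best known targets of Myc in growing cells.

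Pyrimidine runs near the annotated starts are shown for the members that were called in total or polysomal RNA and for those whose longest run covers the RefSeq start. RefSeq promoter windows (GRCm38.p6) were found for 26 of the 33 member genes, in 33 windows, and not for the called members Rpl8, Rps14 and Rps4l. Each line gives 30 bases, read 5′ to 3′ on the gene's strand. Capitals mark the longest run of C and T within 50 bases of the start, followed out to its ends, in the window of that gene with the longest run.
Rpl22: ccgtctgaCTCCTCCCTTTCCCgacagccg
Rpl23: gagtgggcggggCCTCCCgttcatatccca
Rpl26: tcccaaCCTCCTCTCCCCTTTCgctccgag
Rpl34: acccgCCCCTTCCTTTTCCTCTTCCgggga
Rplp0: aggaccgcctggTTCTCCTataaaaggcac
Rps15: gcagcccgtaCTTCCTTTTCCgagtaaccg
Rps21: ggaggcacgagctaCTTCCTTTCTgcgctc
Rps27l: ccccgcctccaCTCCTCTCCactcctcccc
Rpl39l: aacacccactgCCTCTCCCTagctcccagg
Vim: gggaggggaCCCTCTTTCCTaacagtgtta
Rpl14: agggcgggCCCTCTCTCTTCTCgctgagcg
Rplp2: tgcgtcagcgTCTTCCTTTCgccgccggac
Rps9: caaccgccttgTCTCTCTTTgtctcgggcc
Rpl32l: aaatgaccagCTTCTTCCTTggtgctgcct
Eef1a1: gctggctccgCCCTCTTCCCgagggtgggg
Nap1l1: gggctctcgggTCTTTTTTagcgccatctg

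The Rpl34 run (chr3:130730330-130730359, minus strand) had 20 pyrimidines from position -17 and covered the start at position 0. Among the other called members the run of Rpl26 (chr11:68901508-68901537, plus strand) had 16 from -52 and that of Rpl22 (chr4:152325679-152325708, plus strand) 14 from -39. Runs of Rps15 (chr10:80292446-80292475, plus strand) and Rps21 (chr2:180257399-180257428, plus strand) lay downstream of the start, from 25 and 34. Those of Rps27l (chr9:66946053-66946082, plus strand), Rpl39l (chr16:10170191-10170220, plus strand) and Vim (chr2:13574251-13574280, plus strand) lay upstream, from -22, -26 and -51. Rpl23 (chr11:97782404-97782433, minus strand) and Rplp0 (chr5:115559466-115559495, plus strand) were called with short runs, of 6 and 7 bases. The runs that cover the start, beside that of Rpl34, were those of Rpl14 (chr9:120571501-120571530, plus strand), Rplp2 (chr7:141447636-141447665, plus strand), Rps9 (chr7:3704024-3704053, plus strand), Rpl32l (chr10:20208429-20208458, plus strand), Eef1a1 (chr9:78481710-78481739, minus strand) and Nap1l1 (chr10:111473215-111473244, plus strand), with 8 to 14 bases. A run of 8 or more pyrimidines on the gene's strand was present within 50 bases of the start in 24 of the 33 member windows (72.7%) and in 35.7% of all 32851 windows. A C followed by 4 pyrimidines exactly at the RefSeq start was present in 18.2% of the member windows and in 2.51% of all windows, and the 6 members were Nap1l1, Rpl14, Rpl32l, Rplp2, Rps15a and Rps21. The longest runs of Rps15a and Rps21 do not cover that position. An annotated start is not a measured cap site, so these runs describe the letters only.

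Values are log2 RMA intensities, the robust multi-array average. Translational efficiency (TE) is the log2 polysomal value minus the log2 total value of the same culture, and a difference of 1 on this scale is a doubling. The arrays of the fractions are on scales of their own, with medians of 7.20 to 7.31 for total and 3.40 to 3.52 for polysomal RNA, so TE has no absolute zero. The polysomal arrays with the smallest spread over probe sets were untransformed WT 1 (SD 1.15) and transformed WT 3 (SD 1.25), where the others had 1.28 to 1.44. The 10 markers of fibroblasts lay at the 17.2nd to 99.9th percentile of total RNA values, with a median at the 86.4th. The lowest was thus dim, and no detection call was made. After transformation 6 of 10 were called lower in total RNA and 6 in polysomal RNA, among them Postn (-3.99 in total RNA) and Thy1 (-3.49). Leukocyte markers, at a median percentile of 46.2, had a list mean of 7.45 to 7.83 in untransformed and 6.60 to 7.15 in transformed cultures in total RNA, with 5 of 7 called lower and 1 higher. Epithelial markers had a polysomal list mean of 3.78 to 3.99 in untransformed and 3.99 to 5.07 in transformed cultures, with 1 of 5 called higher in polysomal and 2 in total RNA. Endothelial markers had 1 of 6 called higher and 2 lower in total RNA and muscle markers 2 of 6 lower, with none of either called in polysomal RNA. The part of these lists in the members' differences was not tested. In a culture, fewer cells of a type and less RNA per cell cannot be told apart. Eif4e itself, on its probe set 10496485 in total RNA, was 9.10 ± 0.10 (SD, n = 3) in untransformed WT and 8.80 ± 0.10 in untransformed Eif4e+/- cells, and 9.63 ± 0.20 in transformed WT and 9.05 ± 0.19 in transformed Eif4e+/- cells, with no overlap in either state. The genotype difference was -0.30 ± 0.12 (SE, adjusted p = 1) untransformed and -0.57 ± 0.12 (adjusted p = 0.186) transformed. On the other Eif4e probe set, 10496490, the genotypes overlapped in both states, at 7.72 to 7.84 in WT and 7.47 to 7.85 in Eif4e+/- cells untransformed and 7.83 to 7.89 and 7.57 to 7.85 transformed, with differences of -0.11 ± 0.10 and -0.17 ± 0.10 (adjusted p = 1 and 0.72).

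TE spread over a wider range between members than between conditions. The mean TE over the 12 cultures ran from -6.17 for Rpl12 to -1.45 for Rplp1, a protein of the acidic stalk that recruits elongation factors. The 5 highest were Rplp1, Rps14 (-1.66), Rpl26 (-1.95), Rpl32l (-2.11) and Rps19 (-2.19). The 5 lowest were Rpl12, Rplp0 (-5.41), Rpl23 (-5.17), Rplp2 (-4.99) and the Rps9 probe set 10549588 (-4.88). Rplp0 and Rplp1 are partners in the same stalk, and their values did not overlap in any culture: Rplp0 lay between -6.17 and -4.84 and Rplp1 between -1.93 and -1.07. The other Rps9 probe set (10569069) had a mean of -3.69, further from the first than either moved with transformation (0.70 and 0.51). The probe sets of Rpl12 and Rplp2 are annotated through cDNA clones alone. TE subtracts signals from arrays of unequal spread and carries each probe set's own response, so the order describes these probe sets.

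**Figure D1:**
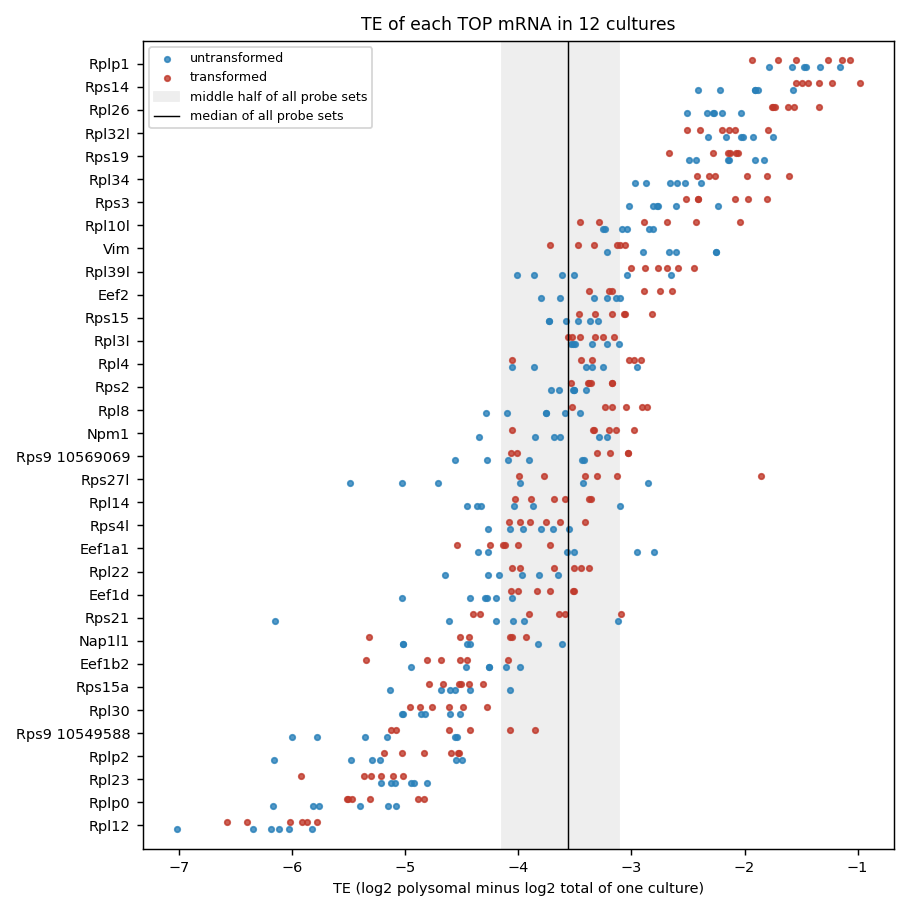
TE of each member probe set (log2 polysomal minus log2 total, x axis) in the 6 untransformed (blue) and 6 transformed (red) cultures, ordered by the mean over 12 cultures; the line and grey band are the median and the 25th to 75th percentile of all probe sets, averaged over the 4 groups. Members run from Rpl12 at a mean of -6.17 to Rplp1 at -1.45, and 27 of 34 members have a higher mean in the transformed cultures.

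With all cultures, the median of the class lay below that of all probe sets in untransformed cells and above it in transformed cells. The median member TE was -3.82 in untransformed WT, where the median of all probe sets was -3.57, and -3.71 in untransformed Eif4e+/- cells, against -3.56. After transformation it was -3.45 in WT, against -3.55, and -3.37 in Eif4e+/- cells, against -3.56. The number of the 34 members above the median of all probe sets was 13, 15, 18 and 19 in these groups. In untransformed WT cells the member median lay 0.26 below that of all probe sets (-0.26); without replicate 1 of that group it lay at -0.06, without replicate 2 at -0.03 and without replicate 3 at -0.42. In untransformed Eif4e+/- cells it turned to 0.02 without Het 2, and in transformed WT, where it was 0.11, to -0.0069 without WT 1 and also just below 0 without WT 2. In transformed Eif4e+/- cells it was 0.14 to 0.28 with any culture left out. Against the probe sets that pass a filter on intensity, the member median of untransformed cells was -0.0006 from theirs in WT and 0.084 in Eif4e+/- cells, so its place below rests on the dim probe sets. No test was made on these levels.

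In total RNA, transformation changed the members about as often as all probe sets. Called higher were Rpl23, Rps27l, Rps21, Rplp0 and Rpl22, and called lower were the paralogs Rpl39l and Rps4l, which makes 7 of 34 against 20.5% of all probe sets (10.2% higher and 10.3% lower), a share close to that of all probe sets. All 34 members pass a filter on intensity, and among the 18560 probe sets that do, 7 of 34 were called against 27.7%. Among probe sets with 1 gene symbol it was 7 of 34 against 23.6%. The median member difference was 0.11, where that of all probe sets was 0.04, and 30 of 34 members were above 0 against 60.3% of all probe sets. All 6 embryos were higher for 9 members and lower for 2, against 13.39% and 10.97% of all probe sets. Untransformed and transformed values did not overlap for 4 members that were higher and 1 that was lower, against 5.72% and 6.47% of all probe sets. Neither pattern is thus rare outside the class. Calls used limma with embryo as a block and Benjamini-Hochberg adjustment over all probe sets, at 0.05.

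Rpl23, a large subunit protein that also binds the p53 ligase Mdm2, was 11.36 at the lowest, 11.40 at the median and 11.52 at the highest of the untransformed cultures, and 11.69, 11.82 and 11.98 in the transformed ones. The states did not overlap, and the difference was 0.41 ± 0.06 (SE, 1.33-fold, adjusted p = 0.00422), higher in 6 of 6 embryos. Rps27l, a paralog of Rps27 known as a p53 target, had 10.91, 11.04 and 11.08 untransformed and 11.29, 11.38 and 11.61 transformed. Its states did not overlap either, and the difference was 0.39 ± 0.07 (adjusted p = 0.00795). Rpl22 (0.22 ± 0.06, adjusted p = 0.0403), whose loss is known to disturb T cell development, was higher in 6 of 6 embryos, and so was Rplp0 (0.22 ± 0.06, adjusted p = 0.0296). Both lost that call when any of the 6 embryos was left out, with adjusted p from 0.0674 to 0.119 for Rpl22 and from 0.0518 to 0.0875 for Rplp0. Rps21 (0.34 ± 0.10, adjusted p = 0.0447), whose probe set is annotated through a predicted transcript alone, was higher in 5 of 6 embryos and lost its call without WT 1, WT 2, Het 1 or Het 2 (adjusted p 0.102 to 0.141). Without the 2 cultures of small polysomal spread Rpl22, Rplp0 and Rps21 were not called either. In every readout this fit leaves WT 1 and WT 3 without a pair, so WT 2 alone gives the WT effect (2 residual degrees of freedom). Fewer pairs and weak arrays cannot be told apart there. With each array centred on its median, Rpl22 and Rps21 were not called. With no embryo block Rplp0 was not called (adjusted p = 0.248).

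Rpl39l, a paralog of Rpl39 with strong expression in the testis, fell furthest. It was 7.28, 7.54 and 7.75 at the lowest, median and highest untransformed culture and 5.35, 6.21 and 6.52 after transformation. Every transformed culture was below every untransformed one, and the difference was -1.43 ± 0.19 (2.69-fold lower, adjusted p = 0.0027). Rps4l, annotated in RefSeq as a transcribed pseudogene of the Rps4 family, fell by 0.53 on the log2 scale (SE 0.06, adjusted p = 0.00107) in 6 of 6 embryos, from a median of 8.63 to a median of 8.10, with overlapping ranges. Vim, the intermediate filament protein vimentin, had the next smallest p among members below 0, at -0.06 ± 0.05 (adjusted p = 0.524). Rpl3l, which replaces Rpl3 in striated muscle, Rpl10l, known from the testis, and Rpl32l were 0.02, 0.04 and 0.14 higher and not called (adjusted p 0.904, 0.907 and 0.0788). The 4 elongation factors were 0.04 to 0.06 higher in total RNA and none was called. Their mean total RNA values lay at the 96.6th percentile of all probe sets for Eef1d and the 99.8th for Eef1a1, Eef1b2 and Eef2. Members as a list had a median percentile of 97.1 in total RNA and 98.3 in polysomal RNA. Whether values so near the top of the arrays narrow the differences seen was not tested.

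In polysomal RNA, 28 of 34 members had higher values after transformation, with a median of 0.43 where that of all probe sets was -0.01. In each of the 6 embryos 13 members were higher and 0 lower, against 5.15% and 4.82% of all probe sets. Called higher were Rps27l, Rpl8, Rps14, Rpl26, Rpl34 and Rps15 and called lower was Vim, 7 of 34 in all, against 4.61% of all probe sets (2.22% higher and 2.39% lower). Among the 18560 probe sets that pass a filter on intensity, 8 of 34 members were called against 6.57%. At an unadjusted p under 0.05 there were 20 members, against 15.4% of all probe sets. All 21 probe sets of large subunit, small subunit and stalk proteins were above 0, by 0.05 to 0.86, and 5 of them were called. The call count rested on single embryos: it was 0 without Het 2 or Het 3, 2 without Het 1 or WT 1, 3 without WT 2 and 18 without WT 3, while the share of all probe sets called moved with it, from 1.52% without Het 3 to 11.3% without WT 3. The median member difference stayed between 0.35 and 0.55 in these 6 fits. Fewer members were above 0 with array weights (25 of 34, median 0.47) and without the 2 cultures of small polysomal spread (24 of 34, median 0.46). With a trended prior and robust fit, Rps27l alone of these 7 kept its call, and without the 2 cultures of small polysomal spread Rps14, Rps15, Rpl34 and Vim lost theirs.

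**Figure D2:**
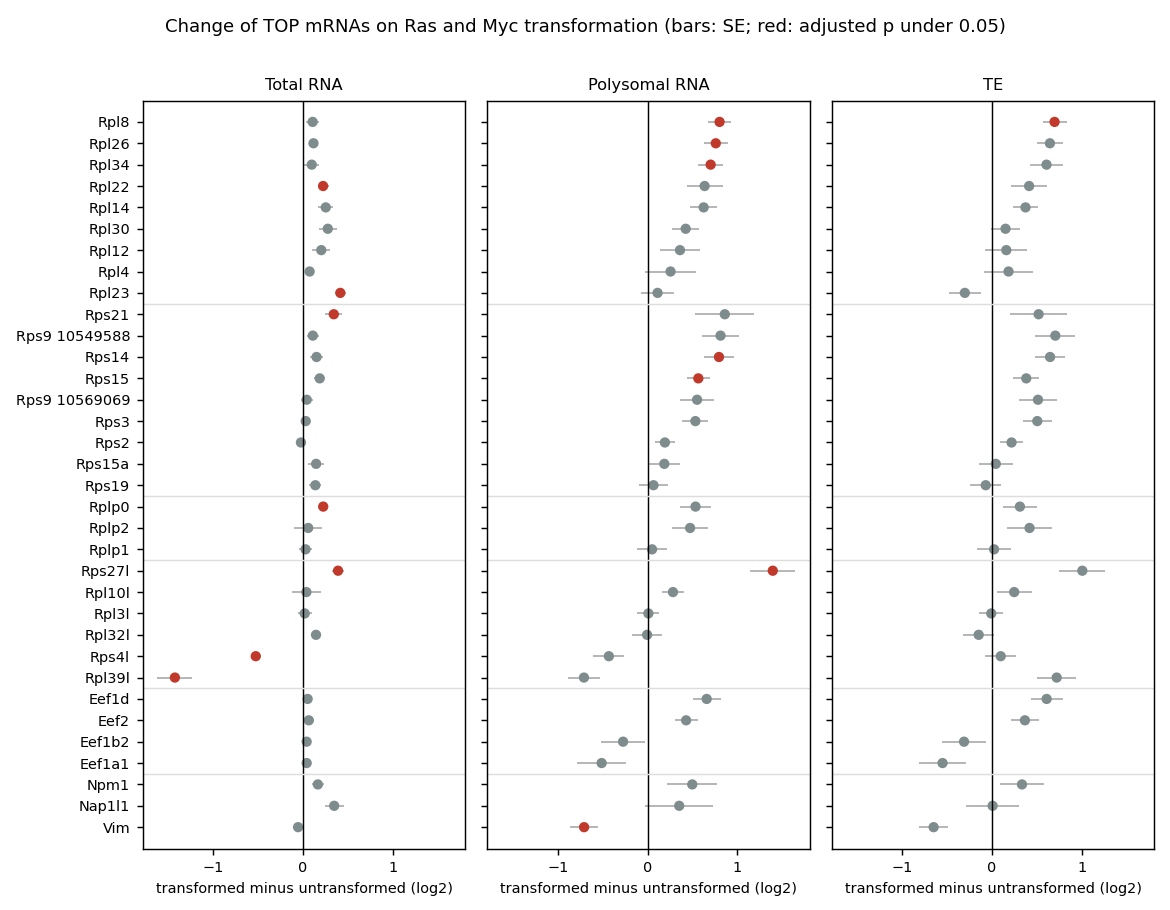
Difference between transformed and untransformed cultures (log2, mean of WT and Eif4e+/-, x axis) for each member probe set in total RNA, polysomal RNA and TE; bars are standard errors, red points passed an adjusted p of 0.05, and grey lines part the large subunit, small subunit, stalk, paralog, elongation factor and further groups. In polysomal RNA all 21 large subunit, small subunit and stalk probe sets lie right of 0, while Vim, Eef1a1, Eef1b2, Rpl39l, Rps4l and Rpl32l (-0.01) lie left of it.

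Among large subunit proteins, Rpl8, which lies near the peptidyl transferase centre, had polysomal values of 7.50, 7.97 and 8.42 (lowest, median and highest) in untransformed cultures and 8.46, 8.78 and 8.97 in transformed ones. The states did not overlap, and the difference was 0.80 ± 0.13 (1.74-fold, adjusted p = 0.0115), higher in 6 of 6 embryos; the call was lost without Het 2 or Het 3 (adjusted p up to 0.0573). Rpl26, known for binding the p53 mRNA, was 8.41, 8.67 and 8.96 untransformed and 9.20, 9.41 and 9.63 transformed, again without overlap, with a difference of 0.76 ± 0.14 (adjusted p = 0.0169). Rpl34 was 6.99, 7.43 and 7.69 untransformed and 7.69, 8.06 and 8.58 transformed, a difference of 0.70 ± 0.14 (adjusted p = 0.0283). Its pyrimidine run of 20 bases was the longest of those printed. The highest untransformed and the lowest transformed Rpl34 values were alike, so its states met without overlapping. Leaving out embryos in turn, Rpl26 kept its call in 2 of 6 fits (adjusted p up to 0.0856) and Rpl34 in 1 of 6 (up to 0.137). Rpl14 (0.62 ± 0.15, adjusted p = 0.0508) and Rpl22 (0.63 ± 0.20, adjusted p = 0.133) had differences of like size and were not called, and Rpl23, the largest rise among members in total RNA, had 0.11 ± 0.18 in polysomal RNA (adjusted p = 0.925).

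Among small subunit proteins, Rps14, which is known from the 5q- syndrome, had polysomal values of 9.37, 9.95 and 10.37 untransformed and 10.39, 10.72 and 10.84 transformed. The states did not overlap, and the difference was 0.79 ± 0.16 (1.73-fold, adjusted p = 0.0305), kept in 1 of 6 fits without an embryo (adjusted p up to 0.137). The Rps14 call was also lost with quantile normalization. Rps15, a protein of the subunit head, rose by 0.56 ± 0.13 (adjusted p = 0.0422) from a median of 8.31 to a median of 8.92; it was called in 1 of 6 such fits. The Rps9 probe sets differed by 0.81 ± 0.21 (10549588, adjusted p = 0.0673) and 0.55 ± 0.19 (10569069, adjusted p = 0.169), both higher in 6 of 6 embryos and not called. Rps21 had a larger difference (0.86 ± 0.33) but a wide spread, with 3.12 in untransformed WT 1 against 4.53 to 5.93 in the other untransformed cultures (adjusted p = 0.233). Rps19, the Diamond-Blackfan anaemia gene, differed by 0.07 ± 0.16 and Rps15a by 0.19 ± 0.18 (adjusted p = 0.954 and 0.804).

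Rps27l had the largest polysomal difference of all members. Untransformed WT cultures 1 to 3 were at 5.59, 8.05 and 7.08 and untransformed Eif4e+/- cultures 1 to 3 at 6.33, 6.02 and 7.55. Transformed WT cultures were at 7.71, 8.17 and 7.30 and transformed Eif4e+/- cultures at 8.19, 8.17 and 9.43. All 6 embryos were higher after transformation, by a mean of 1.39 ± 0.25 (2.63-fold, adjusted p = 0.0172), although the ranges of the states overlapped. Without Het 1, Het 2 or Het 3 the adjusted p was 0.0603, 0.0743 and 0.0817, and with no embryo block 0.0567.

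The stalk proteins Rplp0 (0.53 ± 0.17) and Rplp2 (0.47 ± 0.20) were higher in 5 of 6 embryos in polysomal RNA and were not called (adjusted p = 0.149 and 0.306), and Rplp1 differed by 0.05 ± 0.17 (adjusted p = 0.973). The paralogs Rpl39l and Rps4l were lower in polysomal RNA, by -0.71 ± 0.17 and -0.43 ± 0.17, each in 5 of 6 embryos (adjusted p = 0.0573 and 0.258). Rpl10l, Rpl32l and Rpl3l differed by 0.28, -0.01 and 0.01 (adjusted p = 0.324, 0.996 and 0.993). Rpl3l and Rpl12 were the members whose mean polysomal values (3.06 and 2.91) lay below the medians of all polysomal arrays (3.40 to 3.52), and transformed Rpl39l (median 3.39) was also there, so their TE rests on polysomal signals below the middle of the array.

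The translation factors did not move together. In polysomal RNA Eef1d and Eef2, the exchange factor subunit and the translocase of elongation, were 0.66 ± 0.16 and 0.43 ± 0.13 higher (adjusted p = 0.0533 and 0.109). Eef1d was the fifth member whose states did not overlap, at 5.99 to 6.95 untransformed and 6.96 to 7.50 transformed. These 5 were all higher, and of all probe sets 1.90% lay apart higher and 1.85% lower. Eef1a1, which brings aminoacyl-tRNA to the ribosome, and Eef1b2, a subunit of its exchange factor, were -0.51 ± 0.27 and -0.27 ± 0.24 (adjusted p = 0.465 and 0.77). For Eef1a1 the embryos split: the 3 Eif4e+/- embryos and WT 3 were lower after transformation, and WT 1 and WT 2 were higher (8.02 to 8.70 and 8.09 to 8.47). Npm1, the nucleolar chaperone nucleophosmin, and Nap1l1, a histone chaperone, were 0.50 ± 0.28 and 0.35 ± 0.38 higher (adjusted p = 0.508 and 0.838).

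Vim was the only member called lower in polysomal RNA; Eef1a1, Eef1b2 and the paralogs Rpl39l, Rps4l and Rpl32l were also below 0 without being called. The polysomal values of Vim were 9.33, 9.91 and 10.35 at the lowest, median and highest untransformed culture and 8.72, 9.30 and 9.52 after transformation. It was lower in 5 of 6 embryos, with overlapping ranges, by -0.71 ± 0.16 (1.63-fold lower, adjusted p = 0.0383), and in total RNA it differed by -0.06. The call was lost without WT 1, Het 1, Het 2 or Het 3 (adjusted p 0.104 to 0.17) and with each array centred on its median, and without the 2 cultures of small polysomal spread the difference was -0.41 (adjusted p = 0.202). The fibroblast markers that were lower with it in polysomal RNA were Fn1, Col1a1, Col1a2, Pdgfrb, Postn and Thy1 (-1.25 to -4.59), and their mean over the list of 10 was 5.46 to 6.37 in untransformed and 3.79 to 4.84 in transformed cultures; the part of such a shift in the Vim value was not tested.

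**Figure D3:**
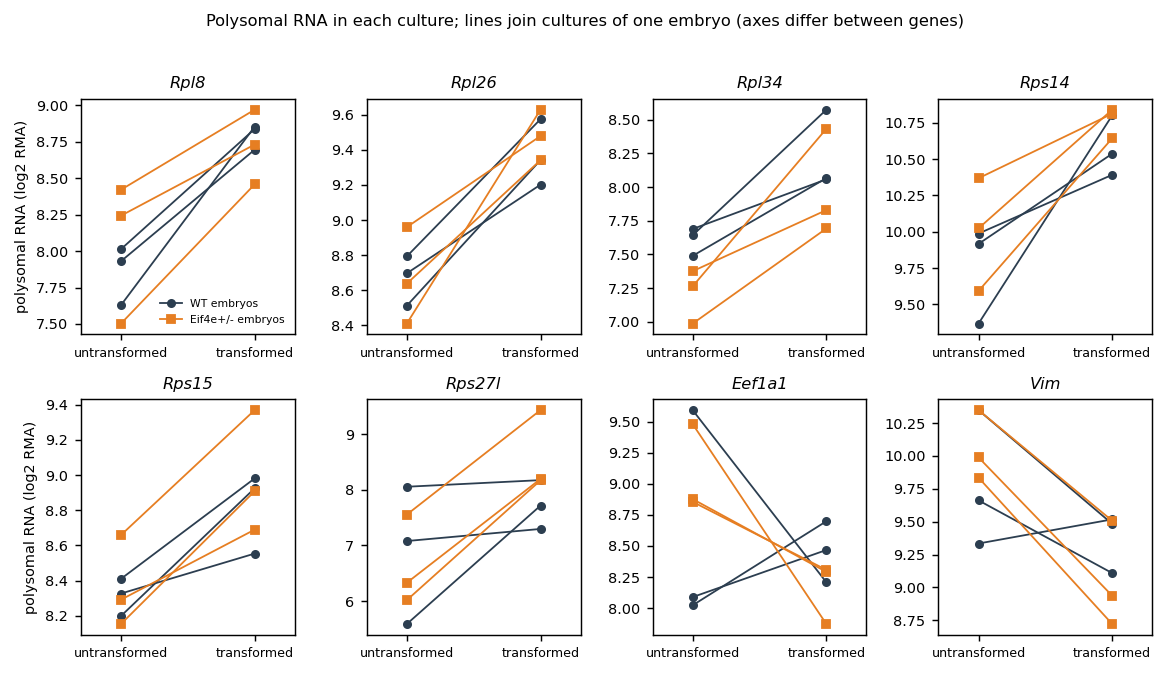
Polysomal RNA (log2 RMA, y axis, scaled per gene) of 8 members in each culture; lines join the untransformed and transformed culture of 1 embryo, with dark circles for the 3 WT and orange squares for the 3 Eif4e+/- embryos. Rpl8, Rpl26, Rpl34, Rps14, Rps15 and Rps27l are higher in 6 of 6 embryos, Vim is lower in 5 of 6 and Eef1a1 in 4 of 6.

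TE, which subtracts the total value, kept the direction for most members and the call for Rpl8 alone. As the arrays of the fractions differ in spread, a change shared by both need not cancel. The median member TE difference was 0.32, where that of all probe sets was -0.03, with 27 of 34 members above 0 against 44.7% of all probe sets. Called were 1 of 34 members higher and 0 lower, against 2.01% of all probe sets (1.29% higher and 0.721% lower), so the call itself was about as frequent as elsewhere, and 14 members had an unadjusted p under 0.05 against 3463 of all 25668 probe sets. Rpl8 had a TE of -4.29, -3.76 and -3.45 (lowest, median and highest) untransformed and -3.53, -3.11 and -2.86 transformed, a difference of 0.70 ± 0.13 (1.62-fold, adjusted p = 0.0313), higher in 6 of 6 embryos with a small overlap. Its call was lost without WT 1, WT 2 or any Eif4e+/- embryo (adjusted p up to 0.165), with quantile normalization and without the 2 cultures of small polysomal spread, and without WT 3 the count of members called was 8. Rpl26 (0.64 ± 0.15, adjusted p = 0.0656) and Rps14 (0.65 ± 0.17, adjusted p = 0.102) were the members whose TE did not overlap between the states, both higher. Of all probe sets, 1.71% lay apart higher and 1.06% lower in TE. Rps27l had 1.00 ± 0.25 (adjusted p = 0.0929), with 4 of 6 embryos higher. Below 0 the smallest p-values were those of Vim (-0.65 ± 0.16, adjusted p = 0.0867), Eef1a1 (-0.55 ± 0.27, adjusted p = 0.413) and Rpl23 (-0.30 ± 0.18, adjusted p = 0.528). Rpl39l, the largest fall in total RNA, had a TE difference of 0.72 ± 0.22 (adjusted p = 0.162), as its polysomal value was lower by less than its total value.

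Mitochondrial ribosomal proteins, whose mRNAs are not TOP mRNAs as a class, gave like values. In TE their 74 probe sets had a median transformation difference of 0.33, with 65 above 0 and 2 called, all higher. In polysomal RNA the median was 0.54, with 72 above 0 and 16 called higher, and in total RNA it was 0.22, with 35 called higher. Their polysomal and TE medians were thus no smaller than those of the TOP mRNAs, and in total RNA they had a larger median. Other genes known to carry a TOP (10 of 15 listed were measured, on 11 probe sets) had 4 probe sets called higher in total RNA and 1 in polysomal RNA (Eif3k, 0.64 ± 0.14, adjusted p = 0.0431). Those in total RNA were Eif3h (0.32), Pabpc1 (0.27), Eif4b (0.26) and Eif3k (0.22), all initiation or poly(A)-binding factors. Their median TE difference was 0.01.

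Of the regulators of TOP mRNAs, 18 of 19 listed genes were measured, on 20 probe sets, and 9 probe sets changed in total RNA with transformation, 6 higher and 3 lower. Pdcd4, an inhibitor of the helicase eIF4A, was 0.91 ± 0.09 higher (adjusted p = 0.00103), Rptor 0.35 ± 0.07 higher (adjusted p = 0.0107), Eef2k, the kinase that inhibits Eef2, -0.42 ± 0.07 (adjusted p = 0.00607) and the mTOR activator Rheb -0.34 ± 0.06 (adjusted p = 0.00653). In polysomal RNA and TE none of the 20 was called. A probe set of Larp1, which binds the cap and the TOP, had the smallest p in TE, at 0.79 ± 0.20 (adjusted p = 0.0883). Of eIF4F, 3 of 5 listed genes were measured, and the Eif4e probe set 10496485 was 0.39 ± 0.08 higher in transformed cells in total RNA (adjusted p = 0.0115) and 0.80 ± 0.20 in polysomal RNA (adjusted p = 0.0629). The Eif4e probe set 10496490 differed by 0.07 ± 0.06 and 0.19 ± 0.12 (adjusted p = 0.507 and 0.595).

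Loss of an Eif4e allele left no member past the test in either state. In untransformed cells, limma called 0 of 34 members in total RNA, polysomal RNA and TE, where 0% of all probe sets were called in each readout. In transformed cells it also called 0 of 34 in each readout, against 0.0312% of all probe sets in total RNA, 0% in polysomal RNA and 0% in TE. At an unadjusted p under 0.05 there was likewise no member in any of these 6 comparisons, where the share of all probe sets was 1.65% to 7.82%. The median member difference, Eif4e+/- minus WT, was 0.03 in total RNA, 0.12 in polysomal RNA and 0.12 in TE of untransformed cells, and 0.04, 0.12 and 0.07 in transformed cells. These medians moved with single embryos. In untransformed cells TE ran from -0.02 without WT 1 to 0.19 without Het 2, polysomal RNA from 0.01 without Het 1 to 0.16 without Het 2, and total RNA from -0.0006 without WT 2 to 0.05 without WT 3. In transformed cells TE ran from -0.0031 without Het 1 to 0.16 without WT 1, polysomal RNA from 0.02 without WT 3 to 0.22 without WT 1, and total RNA from 0.01 without WT 3 to 0.08 without Het 3. The standard errors of the member TE differences were 0.17 to 0.57 with a median of 0.24, so a difference of that size was not detectable with 3 cultures a group.

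**Figure D4:**
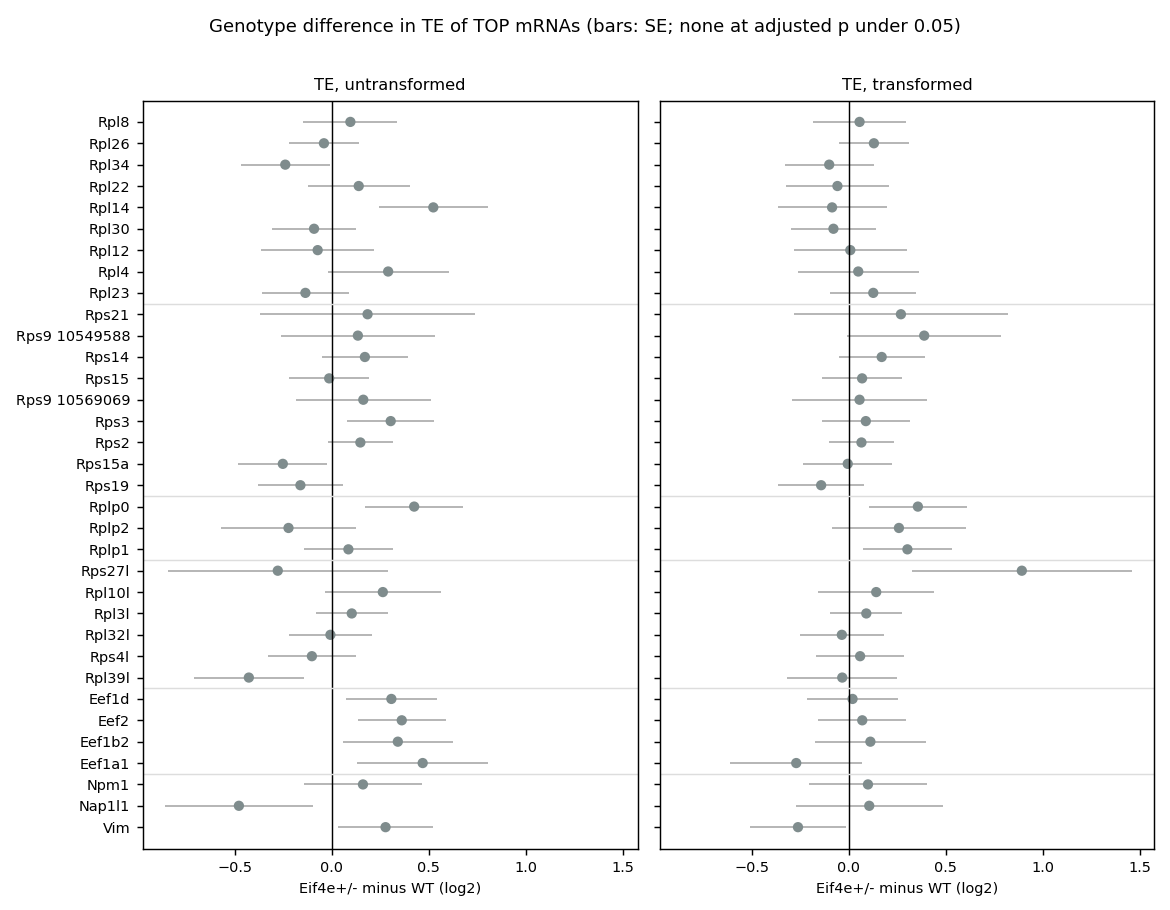
Difference in TE between Eif4e+/- and WT cultures (log2, x axis) for each member probe set in untransformed and transformed cells, 3 against 3 cultures; bars are standard errors and grey lines part the groups as in the plot of transformation differences. Points lie on both sides of 0 in both states (20 and 24 of 34 above 0), and no member passed an adjusted p of 0.05.

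In untransformed cells the members with the smallest p in TE were Rpl14 (0.52 ± 0.28), Rplp0 (0.42 ± 0.25) and Eef2 (0.36 ± 0.23) above 0 and Rpl39l (-0.43 ± 0.28), Nap1l1 (-0.48 ± 0.38) and Rps15a (-0.25 ± 0.23) below it, each with an adjusted p of 1. In polysomal RNA they were Eef2 (0.43 ± 0.20), Rpl14 (0.59 ± 0.29) and Rplp0 (0.52 ± 0.28) above 0 and Rpl34 (-0.40 ± 0.21), Rpl39l (-0.34 ± 0.26) and Rplp2 (-0.23 ± 0.29) below it, at the same adjusted p. Rpl34 polysomal values were 7.64, 7.69 and 7.49 in WT and 7.38, 6.99 and 7.26 in Eif4e+/- cells, without overlap. Nap1l1, Rpl23 and Rpl32l did not overlap between the genotypes in total RNA either. Full separation of 3 against 3 cultures corresponds to a permutation p of no less than 0.1. Its share over all probe sets was not counted, so these separations alone do not show a genotype difference. In total RNA the members with the smallest p were Nap1l1 (0.23 ± 0.14), Rpl30 (0.17 ± 0.11), Rps15a (0.16 ± 0.11), Rpl32l (-0.13 ± 0.06), Rpl34 (-0.16 ± 0.11) and Rpl10l (-0.22 ± 0.20). The 4 elongation factors had TE differences of 0.31 to 0.47, all above 0 and none called.

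In transformed cells the members with the smallest p in TE were Rps27l (0.89 ± 0.57), Rplp0 (0.36 ± 0.25) and Rplp1 (0.30 ± 0.23) above 0 and Vim (-0.26 ± 0.25), Eef1a1 (-0.27 ± 0.34) and Rps19 (-0.14 ± 0.22) below it, with an adjusted p of 1 for each. All 3 stalk proteins were above 0, and polysomal Rplp2 was 5.37, 5.16 and 5.24 in WT and 5.57, 5.56 and 5.51 in Eif4e+/- cells, without overlap (0.29). The same limit of 0.1 holds for this separation of 3 against 3 cultures, and its share over all probe sets was not counted. It alone does not show a genotype difference. Polysomal RNA gave Rplp1 (0.40 ± 0.20), Rps27l (0.87 ± 0.56) and Rplp0 (0.37 ± 0.28) above 0 and Vim (-0.32 ± 0.27), Rpl34 (-0.25 ± 0.21) and Eef1a1 (-0.30 ± 0.35) below it. In total RNA they were Rps3 (0.13 ± 0.07, adjusted p = 0.669), Rps19 (0.13 ± 0.10), Rpl39l (0.33 ± 0.25), Rpl8 (-0.13 ± 0.10), Rpl34 (-0.15 ± 0.11) and Npm1 (-0.07 ± 0.09). None of the other TOP mRNAs or of the TOP regulators was called in any genotype comparison.

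The transformation effect itself was compared between the genotypes as a difference of differences, with embryo as a block. No member was called, against 0% of all probe sets in total RNA, polysomal RNA and TE, and by unadjusted p under 0.05 there were 0, 1 and 1 members, in each case Rps27l. Its TE difference was larger in Eif4e+/- embryos, by a difference of 1.17 ± 0.51 that did not pass (adjusted p = 1), and its polysomal difference was 1.14 ± 0.50 (adjusted p = 1). The 4 elongation factors lay below 0 in TE (-0.74 to -0.23) and in polysomal RNA (-0.80 to -0.23), with Eef1a1 the furthest (TE -0.74 ± 0.53), and Rpl14 (-0.61 ± 0.28) and Vim (-0.54 ± 0.32) were also below 0. Nap1l1 (0.59 ± 0.60) and Rplp2 (0.48 ± 0.50) followed Rps27l above 0 in TE. In polysomal RNA Rpl39l (0.64 ± 0.35) and Rplp2 (0.53 ± 0.41) were above 0 and Rpl14 (-0.58 ± 0.29), Vim (-0.59 ± 0.31) and Eef1a1 (-0.80 ± 0.54) below it. In total RNA Rps4l (0.24 ± 0.11), Rpl32l (0.15 ± 0.10) and Rpl10l (0.34 ± 0.33) were above 0 and Rpl8 (-0.23 ± 0.14), Rpl23 (-0.09 ± 0.13) and Rplp0 (-0.08 ± 0.11) below it, with adjusted p of 0.917 to 0.946.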

How the data were processed

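The deposited values were log2 intensities made by the authors with RMA, per the submitters' processing notes, and were used as deposited; its version and the chip definition are not given in the sources used here. Probe sets were named by the platform annotation. Per the labels' protocols, polysomal RNA came from cycloheximide-treated cells (100 µg/ml) on a 10 to 50% sucrose gradient. TE was log2 polysomal minus log2 total. All 25668 probe sets were fitted with limma (version 3.58.1, R 4.3.3) after the code was tested on simulated data, and a call needed p below 0.05 after Benjamini-Hochberg adjustment over all of them. Genotype effects came from 4 group means (8 residual degrees of freedom). Transformation effects and their difference between genotypes had embryo as a block (4 residual degrees of freedom), because the labels take both cultures from the same embryo; deviations of such pairs from their group means correlated at -0.06 to 0.18 in total RNA, -0.49 to 0.13 in polysomal RNA and -0.47 to 0.14 in TE. Embryos are separate, and 3 a group limit the precision.

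Members and lists were chosen with earlier results of these data known. Named genes were the 5 largest called rises and falls of each comparison, or, where fewer than 3 were called in a direction, the 3 smallest p-values there, plus the translation factors, stalk proteins and paralogs throughout; Rps15, the sixth called rise in polysomal RNA, and members named for non-overlapping or like values were added after their values were seen. Many ribosomal protein genes have processed pseudogenes of near-identical sequence, which these probe sets may also detect. Start-site sequences are from RefSeq.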

Additional observations from a re-analysis of the deposited data

How the results depend on the processing

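The genotype comparisons and the difference of the transformation effect kept 0 members called in every alternative run made for them, among them each embryo left out. The replicate block, the embryo as a random block and the fit on cultures of 1 state were run for the genotype comparisons only. The replicate block gave 0 in all 6 genotype comparisons. Deviations of same-numbered WT and Eif4e+/- cultures from their group means correlated at -0.33 to 0.41 over the readouts. For replicate 1 in total RNA the correlation was 0.41 untransformed and 0.32 transformed, above the range of same-embryo pairs (-0.06 to 0.18). Whether the numbers mark a shared batch was not tested. For transformation, with no replicate block 10, 9 and 3 members were called in total RNA, polysomal RNA and TE, where the fits with embryo as a block called 7, 7 and 1. In polysomal RNA the trend and robust fit called 2 and array weights 19. In TE, quantile normalization and the trend and robust fit called 2 each, array weights 10, and the fit without the 2 weak polysomal cultures 0. Leaving out each embryo gave 4 to 9 members in total RNA, 0 to 18 in polysomal RNA and 0 to 8 in TE. The median member TE against that of all probe sets was -0.0006 in untransformed WT, 0.084 in untransformed Eif4e+/- and 0.41 in transformed Eif4e+/- cells after a filter on intensity, where it was -0.26, -0.16 and 0.19 without it. Leaving out single cultures gave -0.42 to -0.034 in untransformed WT and -0.25 to 0.018 in untransformed Eif4e+/- cells. Reversed, and not called before or after, were Rpl10l in the total RNA difference of effects without the weak cultures (-0.0026), Rplp2 in the untransformed polysomal genotype difference (0.029 without WT 2, 0.12 without Het 2, and -0.46 to 0.12 over the 6 cultures left out), Rps19 in the transformed TE difference (0.043 without Het 2, and -0.25 to 0.043 over the cultures left out) and Nap1l1 in the TE difference of effects (-0.24 with array weights, -0.65 without the weak cultures, -0.12 without WT 3, and -0.12 to 1.20 over the cultures left out). The causes were not tested. Whether the low spread of the polysomal arrays limits what small changes can be seen was not tested.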
